A study of Mus musculus with 12 samples.

Results

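The MYC network genes measured here were Myc, Mycn and Mycl, their partner Max, the antagonists Mnt, Mga, Mxd3, Mxd4 and Mxi1, and Fbxw7. They were taken by name, with estimated counts summed by gene symbol, and make up 10 of the 51734 symbols in the deposited data. Polyadenylated RNA was sequenced as paired reads of 75 bases from 12 mouse thymus libraries. Of these, 9 are T cell leukemias (tumors 1 to 9) from mice whose interleukin-7 receptor alpha chain is under tetracycline control, labelled as induced with doxycycline (Dox), and 3 are thymus of healthy mice (controls 1 to 3). All 12 carry the strain label F5, and neither the driver of the receptor, the age of the mice nor the cells sorted, if any, are stated in the labels. Separate animals for separate libraries are not stated either, so the spread behind the p-values is that between libraries and may be technical.

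MYC, MYCN and MYCL are basic helix-loop-helix leucine zipper transcription factors that bind DNA as heterodimers with MAX, most strongly at the E-box motif CACGTG. MNT, MGA and the MXD proteins, MXI1 among them, also dimerise with MAX and, bound to the same motif, repress transcription. FBXW7 is the substrate receptor of an SCF ubiquitin ligase that marks MYC and NOTCH1 protein for destruction, and its gene is recurrently mutated in human T cell leukemia. In this leukemia, NOTCH1 is known to drive MYC transcription through a distal enhancer, and interleukin-7 signaling promotes survival and growth of T cell progenitors.

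The E-box that both sides of the network bind was searched for in RefSeq promoters of GRCm38.p6, each running from 250 bases before to 50 bases after a gene's start site. CACGTG reads the same on both strands, so 1 search covers both. It was found in 3 of the 9 members with an entry (Max, Mnt and Mxd4; the one without an entry is Myc), and in 8.09% of all 27025 genes with an entry. Of 23 genes known to be induced by MYC, 17 had an entry and 6 held the motif (Ldha, Cdk4, Eif4e, Hspd1, Nme1 and Apex1). The 3 members' windows are shown because they place the motif within genes of the network itself. Cdk4, a G1 kinase gene known to be induced by MYC, is shown because it holds 4 copies before its start site. Any copy after the Cdk4 start site was left out. Letters run 5′ to 3′ on the gene's strand and the capitals mark the motif. The windows lie at chr12:76962221-76962276 (minus strand) for Max, chr11:74830776-74830831 (plus strand) for Mnt, chr5:34187899-34187954 (minus strand) for Mxd4 and chr10:127063338-127063554 (plus strand) for Cdk4.
Max: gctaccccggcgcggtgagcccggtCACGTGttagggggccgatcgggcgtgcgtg
Mnt: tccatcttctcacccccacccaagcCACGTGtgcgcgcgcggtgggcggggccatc
Mxd4: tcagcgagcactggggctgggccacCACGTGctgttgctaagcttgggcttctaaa
Cdk4: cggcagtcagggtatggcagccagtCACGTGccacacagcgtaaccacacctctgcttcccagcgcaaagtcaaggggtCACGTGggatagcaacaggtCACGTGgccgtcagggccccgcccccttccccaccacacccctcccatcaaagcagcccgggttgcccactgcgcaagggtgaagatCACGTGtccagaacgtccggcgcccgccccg
A match describes these letters only, and binding was not measured.

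The libraries fell into sets of unlike composition. Library totals were 18431516 to 34769946 estimated counts over tumors 1 to 6, 11617724 to 17158731 over tumors 7 to 9 and 8133152 to 12019924 in the controls. A set of 1412 olfactory and vomeronasal receptor genes, normally silent in thymocytes, was used as a background. Its median level, as TPM (abundance per transcript length, scaled to the same sum in every library), was 0 to 0.104 across tumors 1 to 6, while tumors 7 to 9 lay at 0.441 to 1.59 TPM and the controls at 1.38 to 1.87 TPM. Mitochondrial genes took 31.6% to 69.3% of counts for tumors 1 to 6, 2.54% to 11.1% for tumors 7 to 9 and 0.0949% to 6.73% for the controls. T cell markers (16 genes, among them Cd3e, Lck and Rag1) summed to 256 to 751 TPM across tumors 1 to 6, against 44.0 to 111 TPM across tumors 7 to 9 and 101 to 177 TPM in the controls. Dendritic cell markers (7 genes) summed to 0.931 to 4.41 TPM across tumors 1 to 6, 12.1 to 27.8 TPM across tumors 7 to 9 and 28.3 to 36.1 TPM in the controls. CPM are counts divided by the library total, scaled by trimmed mean of M-values (TMM) factors. Endothelial markers (4 genes) came to 176 to 1152 CPM across tumors 1 to 6. They came to 74.9 to 141 CPM across tumors 7 to 9 and 24.9 to 70.7 CPM in the controls. Nearly all of the sum in tumors 1 to 6 was Pecam1, at 175 CPM in tumor 6 and 1151 CPM in tumor 5. The other 3 (Cdh5, Kdr and Emcn) lay below all controls in tumors 1 to 6. Macrophage markers (8 genes) came to 19.3 to 179 CPM across tumors 1 to 6, where 1 of the 8 lay above all controls. They came to 13.9 to 14.8 CPM across tumors 7 to 9 and 13 to 16 CPM in the controls. In TPM, macrophage markers came to 3.07 to 21.3 across tumors 1 to 6 and 15.04 to 16.17 in the controls. Endothelial markers came to 24.5 to 191 TPM across tumors 1 to 6 and 23.96 to 61.56 TPM in the controls. In CPM, dendritic cell markers came to 8.41 to 39.4 across tumors 1 to 6 and 30.7 to 32.8 in the controls. In these units the sums overlapped the controls. T cell markers did not, at 2302 to 3286 CPM against 76.6 to 158 CPM. No marker of these 4 cell types was at 0 in every library of a set, and their part in the results was not tested. Tumors 1 to 6 and tumors 7 to 9 are therefore given apart, a split made with these values known. Il7r, the gene of the induced receptor, had 33.3 to 513 CPM across tumors 1 to 6, while tumors 7 to 9 lay between 5.03 and 5.63 CPM and the controls between 2.52 and 3.20 CPM.

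Myc was the member that stood furthest above the controls. In tumors 1 to 6 it had 67.2, 84.3, 161, 99.1, 48.2 and 85.9 CPM, in tumors 7 to 9 it had 3.64, 2.88 and 2.48 CPM, and in controls 1 to 3 it had 1.29, 1.64 and 1.25 CPM. All 9 tumors lay above the highest control, with tumor 3 highest, tumor 5 lowest of the first 6, and tumors 7 to 9 within a few CPM of the controls. Behind these levels stood 629 to 1348 estimated counts over tumors 1 to 6, 63 to 74 over tumors 7 to 9 and 31 to 45 in the controls. Myc was the only member with no overlap between the 9 tumors and the controls, a state shared by 1.3% of 51120 genes in that direction and by 2.84% in the other, where no member lay. The mean of log2(CPM + 1) was 4.95 in the 9 tumors and 1.26 in the 3 controls, a difference of 3.69 (two-sided exact permutation test, p = 0.0136 over 220 splits, smallest possible 0.00455). On the log2(TPM + 1) scale the same difference was 1.22 and missed the threshold (exact permutation p = 0.0727). The gene lies on chromosome 15 at 61985391 to 61990374 on the plus strand of GRCm38.

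**Figure D1:**
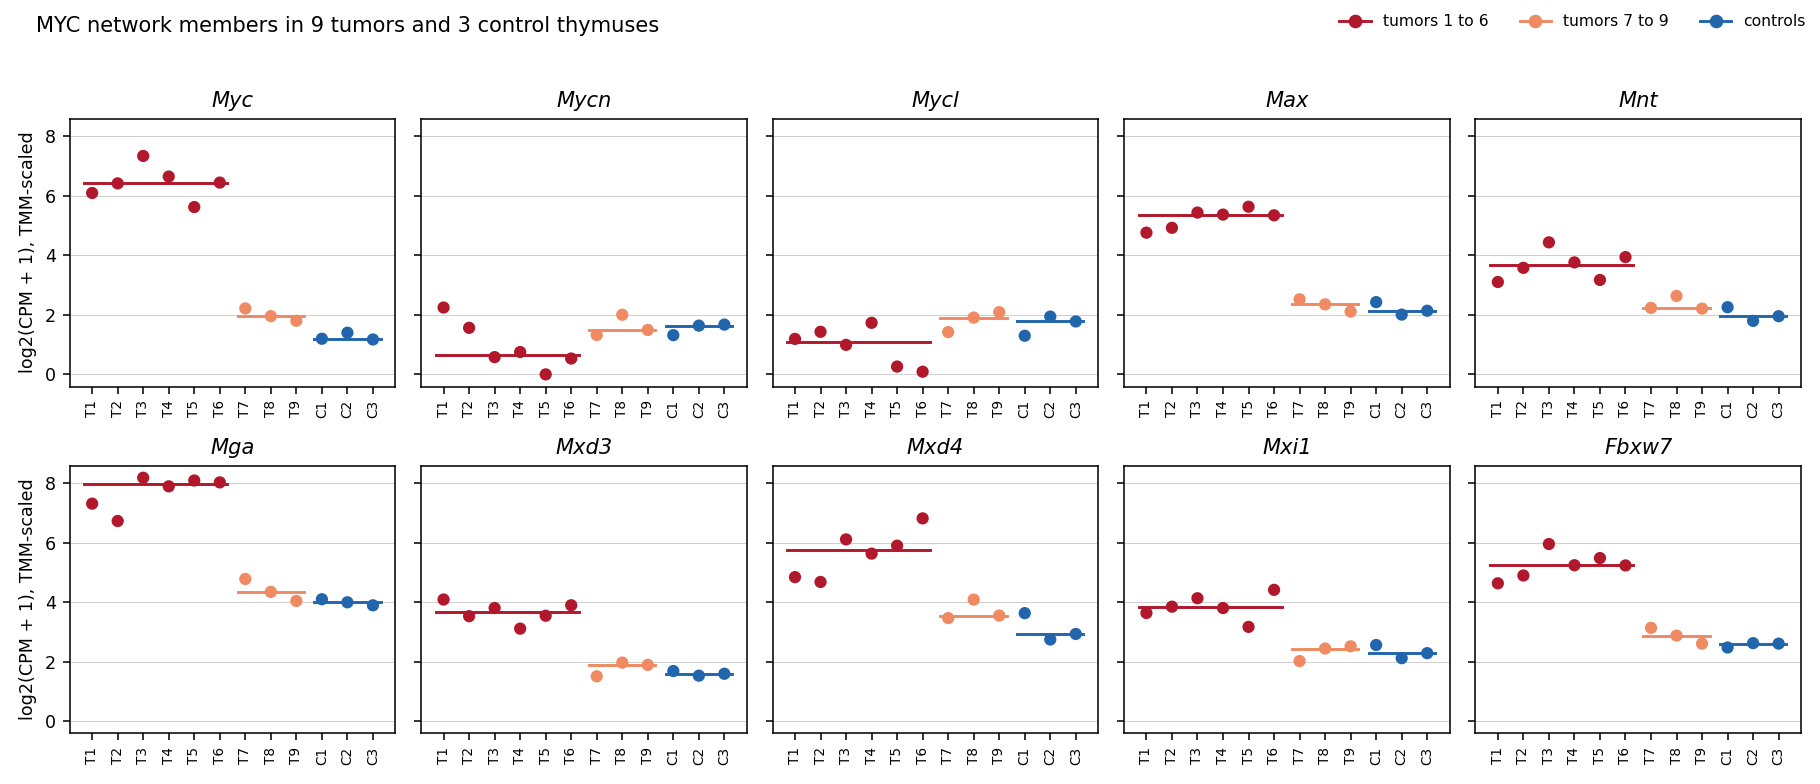
Levels of the 10 members as log2(CPM + 1), TMM-scaled, in tumors 1 to 6 (T1 to T6), tumors 7 to 9 (T7 to T9) and controls (C1 to C3). Each point is a library and each line the median of its set. On this scale, Myc alone has all 9 tumors above the highest control.

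Across all 9 tumors, edgeR's quasi-likelihood test called none of the 10 members at an adjusted p below 0.05, where it called 2 of 40484 genes (0.00494%). Without adjustment 8 members had p below 0.05, as did 18% of all genes. DESeq2 called 6 members higher (Myc, Max, Mga, Mxd3, Mxd4 and Fbxw7), where it called 8.37% of genes higher, and limma-voom with group weights called 8 higher, where it called 17.1% higher. Fitted with limma on log2(TPM + 1), Myc was called higher, as were 0.23% of genes, and Mycn, Mycl and Mxi1 lower, as were 80% of genes. The edgeR log2 fold change of Myc over all 9 tumors was 5.46 ± 1.41 (SE), with an adjusted p of 0.128. With the level of the receptor genes as a covariate it was 1.22 (adjusted p = 1.0), and those of Max, Mga and Fbxw7 were 0.062, 0.20 and 0.22 in that fit, against 2.88, 3.35 and 2.49 without the covariate. Because the sets differed in composition, tumors 1 to 6 and tumors 7 to 9 were each also compared with the controls alone.

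With tumors 1 to 6 against the controls, edgeR called 8 of the 10 members higher (Myc, Max, Mnt, Mga, Mxd3, Mxd4, Mxi1 and Fbxw7) and none lower. Of all 38534 genes tested, 39.9% were called, 19.6% higher and 20.3% lower. The same 8 members had all 6 tumors above the highest control in CPM, as did 16.2% of 51120 genes, and no member had all 6 below the lowest control, as 24.4% of those genes did. The count of members called higher was 8 with RLE size factors, but 2 (Myc and Mga) with scaling to library totals, under which 4.29% of genes were higher and 74.8% lower. Mycn and Mycl were called lower in that fit, and Mnt and Mxi1 had negative fold changes of -0.53 and -0.72. That scaling moved the median log2 fold change of all genes to -3.70, against -1.29 with TMM and -1.58 with RLE. Relative to the median of all genes, the log2 fold change of Myc was 6.96 with TMM, 6.97 with RLE and 7.07 with library totals. For Mnt it was 2.99, 3.00 and 3.18. A change of scaling shifts all genes by about the same amount. These relative values therefore had to stay close, and they do not bear on the calls. TMM-scaled CPM and TPM also gave unlike pictures: Mnt, for example, had 0.414 to 2.71 TPM in tumors 1 to 6 and 2.01 to 2.85 TPM in the controls.

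**Figure D2:**
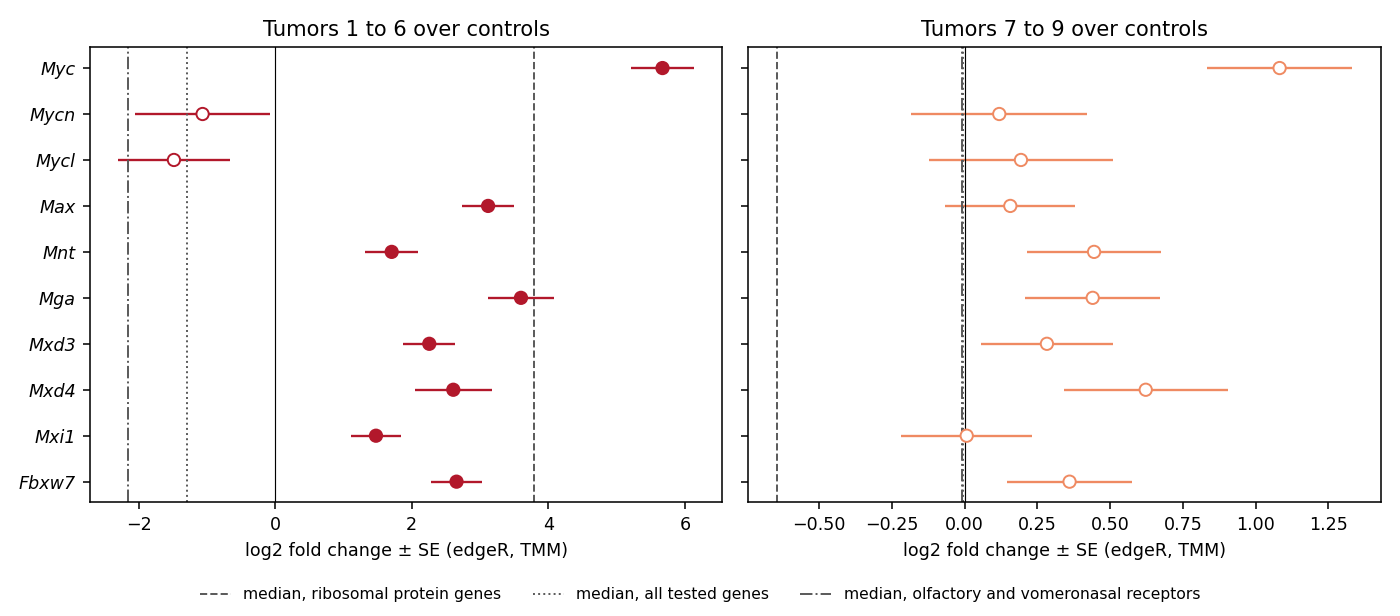
Log2 fold changes over controls with their SE (edgeR, TMM) for tumors 1 to 6 (left) and tumors 7 to 9 (right); filled points passed an adjusted p below 0.05. Vertical lines mark the medians of 83 ribosomal protein genes, all tested genes and the receptor genes; Myc alone lies right of all 3 lines on the left, and with library totals in place of TMM the fold changes of Mnt and Mxi1 are negative there.

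Of the 3 MYC genes, Myc alone was called. Its log2 fold change in tumors 1 to 6 over the controls was 5.67 ± 0.46 (SE; adjusted p = 1.80e-05, edgeR), above 99.6% of 21129 protein-coding genes. The receptor genes had a median log2 fold change of -2.16 in the same fit and the ribosomal protein genes, transcripts that every cell makes, one of 3.79. Set against the receptor genes within each library, Myc TPM was 75.9 to 2215 times their median in tumors 1 to 4 and 6, 2.46 to 4.02 times in tumors 7 to 9 and 0.828 to 1.57 times in the controls. In tumor 5 the receptor median was 0. Myc thus lay near the level of the receptor genes in control thymus. Between tumors 1 to 6 and the controls, this background and the group cannot be told apart.

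Mycn, best known from neural tumors, and Mycl, first described in lung cancer, were at the edge of detection. Mycn had 0, 0.588 and 3.74 CPM as the lowest, median and highest values in tumors 1 to 6, against 1.5, 3.00 and 1.81 CPM in tumors 7 to 9 and 1.49, 2.11 and 2.18 CPM in the controls. The lowest was tumor 5 with 0 counts, which allows up to 3, and the highest tumor 1 with 35 counts. Mycl had 0.064, 1.14 and 2.32 CPM as the same 3 values in tumors 1 to 6, against 1.68, 2.75 and 3.25 CPM in tumors 7 to 9 and 1.46, 2.84 and 2.43 CPM in the controls. Both sets of tumors overlapped the controls for both genes in CPM. In TPM, tumors 1 to 6 lay below every control. They had 0 to 0.471 TPM of Mycn against 1.76 to 3.43 TPM in the controls, and 0.0079 to 0.284 TPM of Mycl against 2.12 to 5.71 TPM. How many of all genes lay below every control in TPM was not counted. Over all 9 tumors, limma on log2(TPM + 1) called 80% of genes lower, Mycn and Mycl among them. Neither passed the test in tumors 1 to 6, with log2 fold changes of -1.06 ± 0.99 (SE; adjusted p = 0.358, edgeR) for Mycn and -1.48 ± 0.81 (SE; adjusted p = 0.140) for Mycl. In TPM, Mycn was 1.48 to 13.5 times the receptor median in the 5 tumors of this set where that median was above 0, against 1.27 to 1.83 times in the controls.

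Max, the shared dimer partner, had 26.1, 39.9 and 48.5 CPM as the lowest, median and highest values in tumors 1 to 6. It had 4.74, 4.10 and 3.32 CPM in tumors 7 to 9 and 4.37, 3.02 and 3.40 CPM in controls 1 to 3. In CPM, tumors 1 to 6 stood apart from both other sets, which overlapped each other. In TPM, tumors 1 to 6 overlapped the controls for Max, at 5.10 to 25.5 against 7.57 to 13.9. The log2 fold change of Max in tumors 1 to 6 was 3.12 ± 0.38 (SE; adjusted p = 4.64e-05, edgeR). In CPM, Max varied 1.86-fold among these tumors and Myc 3.33-fold, whereas in TPM Max varied 5.00-fold and Myc 2.69-fold. The ratio of Myc to Max in TPM, free of scaling between libraries, was 0.792, 1.42, 1.42, 0.797, 0.319 and 0.910 in tumors 1 to 6, 0.330, 0.440 and 0.328 in tumors 7 to 9 and 0.151, 0.207 and 0.206 in controls 1 to 3. Every tumor lay above every control in this ratio, and tumor 5 lay below tumors 7 to 9.

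Among the antagonists, Mga gave the largest difference. MGA is a scaffold of a Polycomb repressive complex and carries a T-box domain besides its helix-loop-helix. Its gene had 105, 248 and 289 CPM as the lowest, median and highest values in tumors 1 to 6, against 26.5, 19.3 and 15.5 CPM in tumors 7 to 9 and 16.1, 15 and 13.9 CPM in the controls. In CPM, tumor 2 was lowest and tumor 3 highest of the first 6, all above both other sets. In TPM, tumors 1 to 6 overlapped the controls, at 2.35 to 17.7 against 5.08 to 9.55. The log2 fold change in tumors 1 to 6 was 3.60 ± 0.48 (SE; adjusted p = 8.34e-05, edgeR), close to the ribosomal protein median of 3.79.

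Mnt, the broadly expressed antagonist that persists in growing cells, had 7.59, 11.8 and 20.6 CPM as the lowest, median and highest values in tumors 1 to 6. In tumors 7 to 9 it had 3.70, 5.20 and 3.62 CPM and in the controls 3.78, 2.47 and 2.87 CPM. Its log2 fold change in tumors 1 to 6 was 1.71 ± 0.39 (SE; adjusted p = 0.00395, edgeR). Tumor 3 was highest for Mnt, as it was for Myc.

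The MXD genes are known for rising as cells leave the cycle and differentiate, except Mxd3, which is known for expression in S phase. Mxd3 had 7.64, 11.8 and 16 CPM as the lowest, median and highest values in tumors 1 to 6, against 1.85, 2.92 and 2.72 CPM in tumors 7 to 9 and 2.22, 1.89 and 2.02 CPM in the controls. Mxd4 had 24.6, 53.6 and 112 CPM as those values in tumors 1 to 6, with tumor 6 highest, against 10.1, 16 and 10.7 CPM in tumors 7 to 9 and 11.4, 5.71 and 6.64 CPM in the controls. Mxi1 had 8.01, 13.2 and 20.3 CPM in the same order in tumors 1 to 6, against 3.06, 4.44 and 4.73 CPM in tumors 7 to 9 and 4.90, 3.35 and 3.88 CPM in the controls. For all of these, tumors 1 to 6 lay above the highest control in CPM, while tumors 7 to 9 overlapped the controls. In TPM, tumors 1 to 6 lay below every control for Mxi1, at 0.331 to 1.627 against 1.632 to 1.844. They overlapped the controls for Mxd3 (0.795 to 4.51 against 2.60 to 2.94 TPM) and Mxd4 (1.02 to 11.3 against 3.50 to 5.69 TPM). The share of all genes below every control in TPM was not counted. Over all 9 tumors, limma on log2(TPM + 1) called 80% of genes lower. The edgeR log2 fold changes in tumors 1 to 6 were 2.26 ± 0.38 (SE; adjusted p = 4.43e-04) for Mxd3, 2.61 ± 0.56 (adjusted p = 0.00275) for Mxd4 and 1.48 ± 0.37 (adjusted p = 0.00693) for Mxi1. Mxi1 missed the threshold without control 2 (adjusted p = 0.0501), the only member whose call was lost when 1 library was left out of this comparison. Mki67, a proliferation gene, ran alongside: tumors 1 to 6 had 1345 to 4137 CPM, tumors 7 to 9 had 11.7 to 90.6 CPM and the controls 11.4 to 42.8 CPM. Its part in these values was not tested.

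Fbxw7 had 23.8, 36.7 and 61.0 CPM as the lowest, median and highest values in tumors 1 to 6, against 7.8, 6.35 and 5.10 CPM in tumors 7 to 9 and 4.57, 5.17 and 5.10 CPM in the controls. It was higher in tumors 1 to 6 by 2.66 ± 0.38 on the log2 scale (SE; adjusted p = 1.32e-04, edgeR). With scaling to library totals this log2 fold change was 0.42. The tumors of this set did not overlap the controls in CPM. In TPM they did, at 1.13 to 3.79 against 2.13 to 6.65 in the controls. Transcript levels say nothing of mutations in the gene, which were not analysed here. The ratio of Myc to Fbxw7 in TPM was 2.25 to 6.47 over tumors 1 to 6, 0.285 to 1.53 over tumors 7 to 9 and 0.421 to 0.537 in the controls.

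Tumors 7 to 9 were closer to the controls in composition. Set against the controls alone, they gave no member past the threshold by edgeR, which called 18 of 36420 genes (0.0494%) there, 0.0247% higher and 0.0247% lower, and 1 member, Myc, at an unadjusted p below 0.05, as were 9.04% of genes. Its log2 fold change was 1.08 ± 0.25 (SE; unadjusted p = 0.00172, adjusted p = 0.276), above 98.2% of 21044 protein-coding genes, and 0.30 with scaling to library totals. Myc was also the only member with tumors 7 to 9 all above the highest control, as were 6.76% of 51120 genes, and no member had them all below the lowest control, as 6.67% of those genes had. Mxd4 came next with a log2 fold change of 0.62 ± 0.28 (SE; adjusted p = 0.559). The ribosomal protein genes had a median log2 fold change of -0.64 in this comparison. In bulk tissue of this kind, fewer cells of a type and less RNA per cell cannot be told apart.

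The order of the members within the tumors can be read per length, in TPM. Over tumors 1 to 6 the medians were 9.58 TPM for Max, 8.02 for Myc, 6.24 for Mga, 2.30 for Fbxw7, 2.07 for Mxd3, 1.92 for Mxd4, 0.964 for Mnt, 0.462 for Mxi1, 0.216 for Mycl and 0.0881 for Mycn. Mga lay above Fbxw7 and Mxi1 above Mycl in 6 of 6 tumors, and Myc above Mga, Mxd4 above Mnt and Mnt above Mxi1 in 5 of 6. Max exceeded Myc in 4 of 6. Fbxw7, Mxd3 and Mxd4 were not separated, with Fbxw7 above Mxd3 in 3 tumors and Mxd3 above Mxd4 in 2, nor were Mycl and Mycn, with Mycl above in 3. The highest Myc level by TPM was 18.4, in tumor 6, whereas by CPM tumor 3 was highest.

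The balance of Myc to its antagonists was taken as Myc TPM over the summed TPM of Mnt, Mga, Mxd3, Mxd4 and Mxi1 within each library. It was 0.799, 1.30, 0.897, 0.840, 0.379 and 0.487 in tumors 1 to 6, 0.270, 0.213 and 0.192 in tumors 7 to 9, and 0.0665, 0.132 and 0.156 in controls 1 to 3. In this form of the balance the 3 sets did not overlap, and tumor 2 was the only library in which Myc exceeded the antagonists together. Myc reached 8.14 TPM against 21.5 TPM of antagonists in tumor 5 and 7.27 TPM against 5.61 TPM in tumor 2, so in TPM the low and the high end of the range differed more in the antagonists than in Myc. In CPM, Myc itself was lower in tumor 5 (48.2) than in tumor 2 (84.3). In tumor 6 both were high, at 18.4 TPM of Myc and 37.8 TPM of antagonists. In the controls the antagonists summed to 17.2, 20.5 and 18.3 TPM, within the range of the tumors, and Myc was 1.15, 2.71 and 2.86 TPM. No test was made of this ratio, whose members were chosen with earlier results of these data known. In tumors 7 to 9 and the controls, Myc and several antagonists lay within a few-fold of the receptor genes, and the part of that background in the ratio was not tested.

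**Figure D3:**
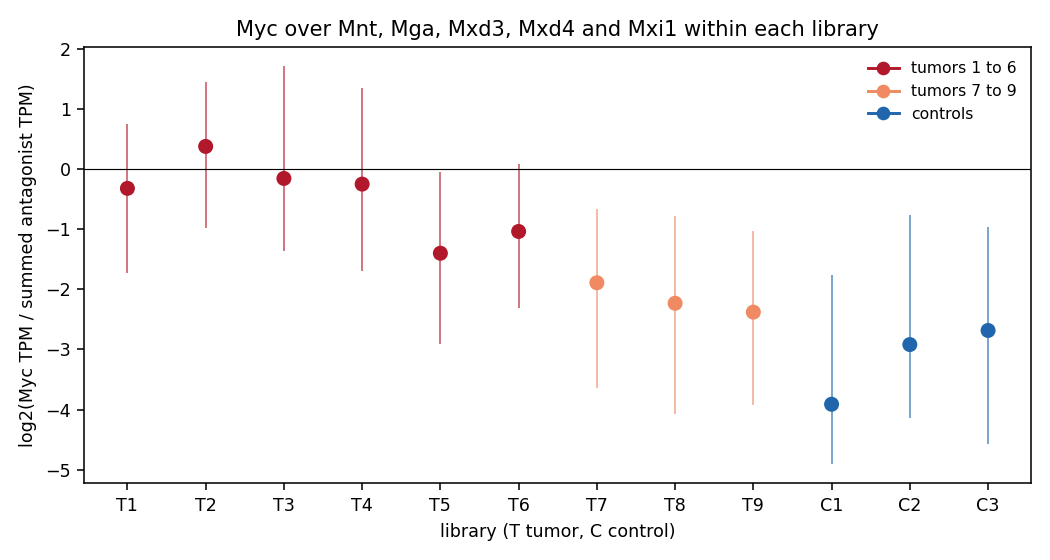
Log2 ratio of Myc TPM to the summed TPM of Mnt, Mga, Mxd3, Mxd4 and Mxi1 in each library (points); lines run from the lowest to the highest ratio over 8 ways to form it. Tumor 2 lies above 0 and the other tumors of the first 6 between 0.379 and 0.897 as ratios, with tumors 7 to 9 at 0.192 to 0.270 and the controls at 0.0665 to 0.156.

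The balance was formed in 8 ways. In each of these forms, which changed the length scaling, the genes or the transcripts used, tumor 5 was lowest of tumors 1 to 6 and tumors 5 and 6 lay below tumors 1 to 4. Tumor 2 was highest in 7, and tumor 3 in the form with Mxd3, Mxd4 and Mxi1 alone. Tumors 1 to 6 lay above all controls in 7 forms, the exception being the sum of Myc, Mycn and Mycl, where tumor 5 had 0.380 and tumor 6 had 0.490 against 0.292 to 0.579 in the controls. Tumors 7 to 9 lay above all controls in 5 forms. Tumors 1 to 6 lay above tumors 7 to 9 in 6 forms: tumor 5 was below tumors 7 to 9 (0.413, 0.575 and 0.484) in the sum of Myc, Mycn and Mycl, and with protein-coding transcripts alone it had 0.461, against 0.518 in tumor 7. Whether Myc exceeded the antagonists also turned on the form. Tumors 2, 3 and 4 did so with counts per kilobase (1.51, 1.36 and 1.14) and with protein-coding transcripts (1.74, 1.38 and 1.06), tumors 1 to 4 did so without Mga (1.52 to 2.23), and no tumor did so without length scaling.

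The make-up of the antagonist pool differed among the tumors. Mga took the largest part in each of tumors 1 to 6, 41.9% to 57.4% of antagonist TPM, against 25.5% to 44.9% in tumors 7 to 9 and 29.5% to 46.7% in the controls. It was the largest part in the other libraries too, except tumor 8 and control 1, where Mxd4 took 34.6% and 33.0%. Mxd3 took 28.2% and 22.6% in tumors 1 and 2, but 9.32% to 13.7% in tumors 3 to 6. Mnt took 18.7% and 15.8% in tumors 3 and 4 and 2.98% to 9.80% in the other tumors of this set. Mxd4 was largest in tumor 6, at 30.0%, against 15.1% to 23.3% in tumors 1 to 5. Mxi1 took 2.54% to 7.57% across tumors 1 to 6, against 6.25% to 9.04% across tumors 7 to 9 and 7.98% to 10.7% in the controls. The sets do not overlap for Mxi1 between tumors 1 to 6 and the controls, and do for the other antagonists.

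**Figure D4:**
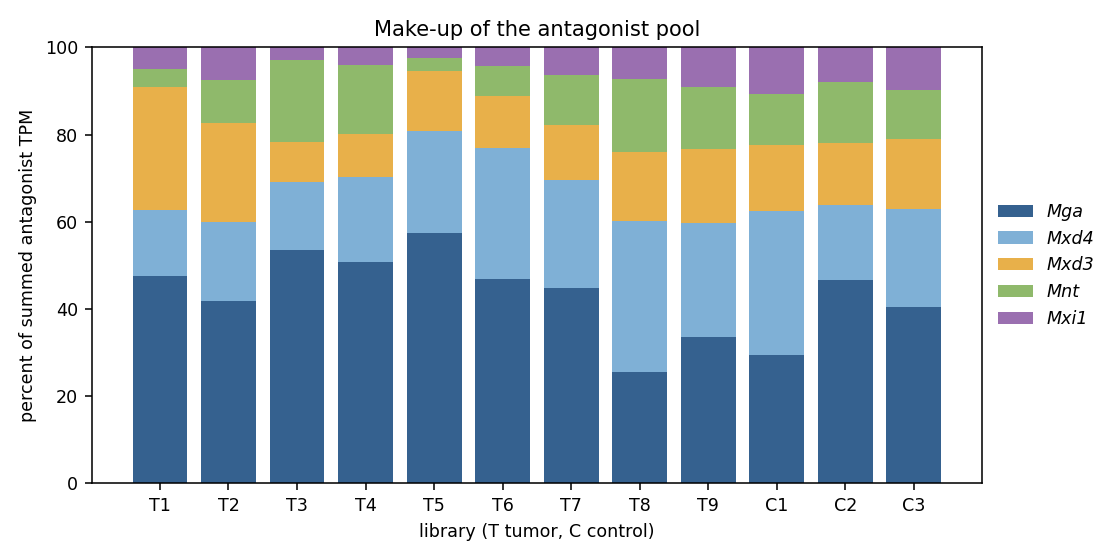
Share of each antagonist in the summed TPM of Mnt, Mga, Mxd3, Mxd4 and Mxi1, in percent, for each tumor (T1 to T9) and control (C1 to C3). Mga is the largest part in every library but tumor 8 and control 1, where Mxd4 is. Among tumors 1 to 6, Mxd3 is larger in tumors 1 and 2, Mnt in tumors 3 and 4 and Mxd4 in tumor 6.

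Which transcript the counts fell on also differed. For Mxd3, kallisto divided counts between the spliced coding transcript Mxd3-201 and Mxd3-203, which keeps 2 introns of 754 bases in all. The letters below, from GENCODE M21 on the minus strand of GRCm38 chromosome 13, show where they part: Mxd3-201 joins exon 2 (55329269 to 55329374) to exon 3 (55328614 to 55328643), while Mxd3-203 reads on into the intron, in capitals, within an exon from 55328370 to 55329374.
Mxd3-201: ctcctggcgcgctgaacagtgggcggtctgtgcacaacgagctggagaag
Mxd3-203: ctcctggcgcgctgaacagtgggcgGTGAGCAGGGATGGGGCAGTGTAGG
The share of Mxd3 counts on the intron-keeping transcript was 14.0%, 42.0%, 23.8%, 25%, 11.6% and 13.8% in tumors 1 to 6, 68.8%, 76.8% and 79.0% in tumors 7 to 9, and 89.6%, 88.5% and 90% in controls 1 to 3. The 3 sets did not overlap, but how many other genes with intron-retaining transcripts separate this way was not counted. The widest 95% Wilson interval of each set ran from 15.5% to 37.7% for tumor 4, from 51.4% to 82.0% for tumor 7 and from 77.0% to 94.6% for control 2. These intervals cover counting error only and take kallisto's estimates as if they were counted reads. Mxd3-203 itself held 14 to 34 counts over tumors 1 to 6, 22 to 64 over tumors 7 to 9 and 45 to 60 in the controls. The other Mxd3 counts came to 42 to 237 over tumors 1 to 6, 10 to 17 over tumors 7 to 9 and 5 to 7 in the controls. The receptor background moved the same way across the libraries, and its part in this share was not tested.

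**Figure D5:**
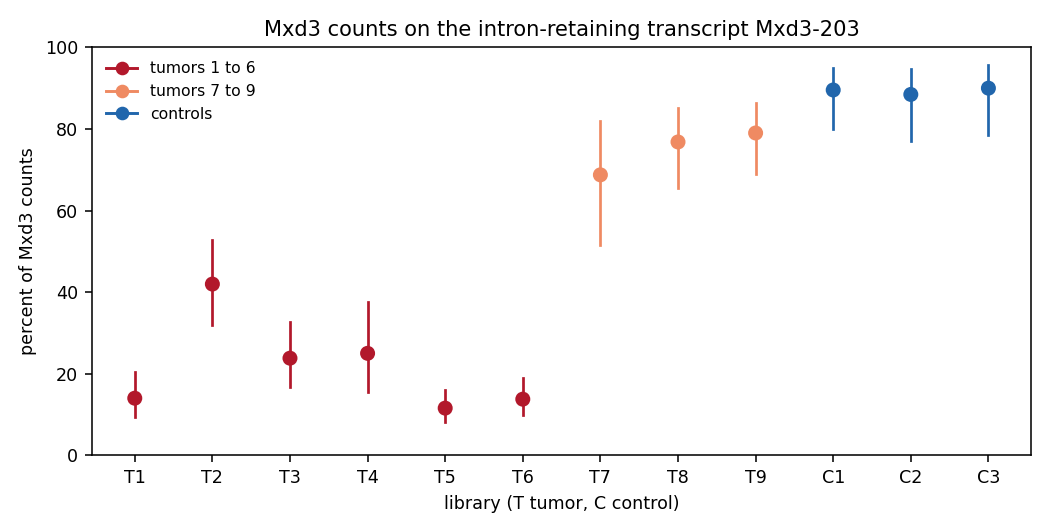
Percent of Mxd3 estimated counts on the intron-keeping transcript Mxd3-203 in each tumor (T1 to T9) and control (C1 to C3), with 95% Wilson intervals. Tumors 1 to 6 lie at 11.6% to 42.0%, tumors 7 to 9 at 68.8% to 79.0% and the controls at 88.5% to 90%.

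Mga followed the same order. Its transcripts annotated as retaining introns took 2.09% to 3.73% of counts over tumors 1 to 6, 8.52% to 11% over tumors 7 to 9 and 13.1% to 14.8% in the controls. A further coding transcript, Mga-215, with 21 exons and 6995 bases, took 43.1% to 55.7% of Mga counts in tumors 1 to 6. It took no count in tumors 7 to 9 or the controls. For directly counted reads, a count of 0 there would allow shares of up to 0.650% to 0.656% and 0.616% to 0.874%. These limits do not bound a share that kallisto divides among overlapping transcripts. Mga-201, another coding transcript, was likewise listed at 0 in those libraries and took up to 42.4% in tumors 1 to 6, and so were Mga-205, Mga-206 and Mga-209, which took up to 5.45%. Mga-215 ends at position 119960794 of chromosome 2, short of the last exons of the other 4 coding transcripts, which end at 119967749 or 119969581. kallisto estimates how reads shared by such overlapping transcripts divide, so this share is a property of that estimate and was not checked against reads. For Mxd4, the intron-retaining share was 23.9% to 35.4% over tumors 1 to 6, 17.2% to 37.9% over tumors 7 to 9 and 38.7% to 47.6% in the controls. For Max it was 3.11% to 11.2% in tumors 1 to 6, within reach of 8.43% to 13.6% in the controls.

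Among tumors 1 to 6, Mnt was the member whose CPM followed Myc most closely (Pearson r = 0.92 in log2(CPM + 1), n = 6), and Mxi1 came next (r = 0.72). Max, Mxd3 and Mycn gave 0.06, -0.04 and -0.03. Among 4878 protein-coding genes of at least 20 CPM on average, the highest were Dhx37 (r = 0.99), which encodes an RNA helicase of ribosome assembly, Limk2 (0.99), Osbpl7 (0.98), Dhx38 (0.98) and Pdcd11 (0.98). Dhx37 had 14.9 CPM in tumor 5 and 47.3 CPM in tumor 3, the tumors lowest and highest for Myc. These are the highest of many correlations over 6 points that share their library scaling, and are given as a description.

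The wider network was described by gene lists chosen with earlier results of these data known. Over all 9 tumors edgeR called no gene of the 6 lists, where 4 of 7, 17 of 17, 18 of 20, 21 of 23, 8 of 14 and 12 of 13 genes had an unadjusted p below 0.05, for the MAX network, the coactivators and corepressors, protein turnover, induced genes, repressed genes and regulators of Myc. DESeq2 called 65 of the 93 genes higher and limma-voom 77, whereas limma on log2(TPM + 1) called none higher and 28 lower, beside the shares of all genes given for the members. The counts that follow compare tumors 1 to 6 with the controls under TMM, where 19.6% of all genes were higher and the median log2 fold change was -1.29. Scaling to library totals lowered every list's count, to 0 of 7, 7 of 17, 4 of 20, 10 of 23, 4 of 14 and 9 of 13 genes higher and 2, 0, 1, 2, 4 and 0 lower, and turned the median of the first list to -0.36. Relative to the median of all genes, the list medians were 3.13 to 5.23 under TMM and 3.34 to 5.45 under library totals. These too had to stay close, since scaling shifts all genes about alike. Tumors 7 to 9 gave no call in any list, with list medians of -0.23 to 0.45 beside -0.01 for all genes.

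Of 7 further genes of the MAX network, 5 were higher and 1 lower in tumors 1 to 6, with a median log2 fold change of 1.84. Mycbp2, a large E3 ubiquitin ligase first described as a MYC-binding protein, had 301 ± 83.1 CPM in tumors 1 to 6 and 35.3 ± 1.52 CPM in controls (SD, n = 6 and 3). Zbtb17, which encodes the MYC-recruited zinc finger factor MIZ1, had 16.8 ± 8.20 CPM in tumors 1 to 6 and 3.60 ± 1.17 CPM in controls. All 17 coactivators and corepressors were higher, with a median of 2.86, led by Ncor1, a corepressor scaffold (565 ± 180 CPM in tumors 1 to 6, 14.7 ± 3.90 CPM in controls), and Bptf, a nucleosome-remodelling subunit (394 ± 133 CPM in tumors 1 to 6, 13 ± 4.67 CPM in controls).

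Of 20 genes for MYC protein turnover, 19 were higher and none lower, with a median of 2.65. Huwe1, a ubiquitin ligase with MYC among its substrates, had 663 ± 233 CPM in tumors 1 to 6 and 47.0 ± 20.1 CPM in controls, and Cul1, the scaffold of SCF ligases such as that of FBXW7, had 107 ± 23.0 CPM in tumors 1 to 6 and 4.36 ± 1.34 CPM in controls. Of 13 regulators known to act on Myc transcription, 12 were higher, with a median of 3.94. Tcf7, a T cell factor of the WNT pathway, had 483 ± 183 CPM in tumors 1 to 6 and 5.45 ± 1.84 CPM in controls, and Myb, a transcription factor gene of T cell progenitors, had 307 ± 60.9 CPM in tumors 1 to 6 and 8.14 ± 3.11 CPM in controls. Notch1, also on this list and named after its values were seen, ranged from 34.0 to 809 CPM among tumors 1 to 6, while tumors 7 to 9 had 7.57 to 15.9 CPM and the controls 9.10 to 17.7 CPM.

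Genes known to be induced by MYC and genes known to be repressed by it were both called higher, where called, in tumors 1 to 6. Of 23 induced genes, 21 were higher and none lower, with a median of 3.04. Ncl, which encodes nucleolin, had 1467 ± 301 CPM in tumors 1 to 6 and 27.6 ± 5.27 CPM in controls (SD, n = 6 and 3). Npm1, another nucleolar protein gene, had 771 ± 265 CPM in tumors 1 to 6 and 27.0 ± 8.41 CPM in controls. Of 14 repressed genes, 8 were higher and none lower, with a median of 2.93. Txnip, a regulator of glucose uptake, had 21.4 to 334 CPM across tumors 1 to 6, against 2.45 to 3.39 CPM across tumors 7 to 9 and 1.96 to 2.29 CPM in controls. Btg2, an antiproliferative gene, had 28.3 to 114 CPM in tumors 1 to 6, while tumors 7 to 9 had 1.79 to 3.22 CPM and the controls 1.78 to 2.95 CPM. The ribosomal protein median of 3.79 in this comparison lies above both list medians.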

How the data were processed

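For each of the 12 libraries the authors deposited kallisto estimated counts and TPM values per transcript, with lengths, per the file headers; the files list 128622 transcripts of 51826 gene identifiers and 51734 symbols. Per the submitters' processing notes, the tools were FastQC and kallisto and the build mm10; for their versions and options the sources used here give nothing. Estimated counts were summed by symbol and rounded for the count tests, and TPM values were summed by symbol. kallisto splits reads among overlapping transcripts, so transcript shares are estimates. Positions come from GENCODE M21, which holds 51633 of the identifiers.

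Groups follow the sample labels. The main test was edgeR 4.0.16 (quasi-likelihood F test, TMM factors, filterByExpr by group, Benjamini-Hochberg adjustment over all genes tested) in R 4.3.3. limma 3.58.1 and DESeq2 1.42.0 served as alternatives. Mean log2(CPM + 1) of Myc was compared by a two-sided exact permutation test. The CPM minimum of 20 for genes set beside Myc and the rule for named list genes (the 3 with the highest mean CPM where none passed) were set with the lists. The members, the lists and the split of the tumors were chosen with earlier results of these data known. Other scalings and leave-one-out fits of tumors 1 to 6 and 7 to 9 were added after the data were seen. No library pair agreed within sampling noise (lowest chi-square per degree of freedom 3.29). Intervals and limits cover counting error only. The level of B cell markers is not reported here.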

Additional observations from a re-analysis of the deposited data

How the results depend on the processing

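Over all 9 tumors, edgeR called 2 genes in all and 0 members with TMM, RLE, library totals, no low-count filter and protein-coding genes only. The number of genes called was 0 with at least 5 CPM and 0 with the receptor background as a covariate, 4315 by DESeq2, 32481 by limma on log2(TPM + 1), 15017 by limma-voom, 15386 without tumors 7 to 9, 18 for tumors 7 to 9 alone and 0 to 3 without 1 library. Members called were 6 by DESeq2, 4 by limma on TPM, 8 by limma-voom and 8 without tumors 7 to 9, and the 93 listed genes gave 65, 28 (all lower), 77 and 82. Replicate numbers 1 to 3 do not pair the libraries (deviations of same-numbered libraries correlated at -0.03, 0.07 and -0.03); the fit with the replicate block, which leaves out tumors 4 to 9, called 9909 genes, 8 members and 84 listed genes. In tumors 1 to 6, library totals gave 4 members called in place of 8 and leaving out 1 library gave 7 to 8.

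Signs turned in some fits. With library totals the log2 fold changes over 9 tumors were -0.42 for Mnt, -0.074 for Mxd3 and -0.68 for Mxi1. With limma on log2(TPM + 1) they were -0.20 for Max, -0.50 for Mnt, -0.32 for Mga, -0.38 for Mxd3, -0.45 for Mxd4, -0.71 for Mxi1 and -0.72 for Fbxw7. For Mycn and Mycl they were 1.27 and 0.87 with the background covariate, and 0.12 and 0.19 in tumors 7 to 9. Myc was positive in every fit, at 1.22 with the background covariate. Its exact permutation p was 0.0727 on log2(TPM + 1) for a difference of 1.22, 0.0455 with library totals, and 0.00606 to 0.0485 (differences of 3.39 to 4.08) without 1 library. The median log2 balance of tumors 1 to 6 was -0.29, moving to -1.70 without length scaling, 0.69 without Mga and 1.03 with Mxd3, Mxd4 and Mxi1 only, and lay at -0.32 to -0.25 without 1 tumor. The causes of these shifts were not tested. With 31 to 45 Myc counts per control, and 0 to 35 Mycn counts in tumors 1 to 6, counting error limits the low values.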

Other observations

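Genes near the members were examined by chromosome, after their values were seen. Over 7834 protein-coding genes in tumors 1 to 6, each gene's log2(CPM + 1) was centred on its mean over these tumors and then on the library's median over all of these genes. The 282 genes of chromosome 15, which holds Myc, had medians of -0.26, 0.19, 0.43, -0.24, 0.13 and -0.18 (log2) in tumors 1 to 6. These medians did not follow the order of Myc CPM, which was highest in tumor 3 (161), next in tumor 4 (99.1) and lowest in tumor 5 (48.2). The share of chromosome 15 genes above 0 was 74.5% in tumor 3, 20.9% in tumor 4 and 59.2% in tumor 5. The other 19 chromosomes ranged from -0.32 to 0.32, the highest being chromosome 11 in tumor 2, with 650 genes and Mnt among them. Mnt itself had 10.9 CPM in tumor 2, against a median of 11.8 CPM over tumors 1 to 6. No control was used in these values and no cause was tested.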
